A study of Homo sapiens with 32 samples.

Results

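The genes described here encode parts of the respiratory chain, 13 of them on the mitochondrial genome and 41 in the nucleus. They were taken by name from a fixed list of 54 genes, with no cut on measured values. The list was drawn up with earlier results of these data known. By symbol, the nuclear genes comprise 20 of complex I, 4 of complex II, 7 of complex III, 9 of complex IV and CYCS, which encodes cytochrome c. NDUFA4 carries a complex I symbol, although its protein is now counted as a subunit of complex IV. All 54 were listed among the 57820 genes of each HCT116 count file and among the 11887 genes of each HEK293 count file, and all 54 passed the filter on low counts in every comparison.

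In oxidative phosphorylation, complexes I and II pass electrons from NADH and succinate to ubiquinone, complex III passes them on to cytochrome c, and complex IV passes them to oxygen. The proton gradient built by complexes I, III and IV drives ATP synthase. The mitochondrial genome is transcribed by its own polymerase, POLRMT, from promoters on both strands into long precursors that are then cut into single RNAs. The nuclear subunits are transcribed one by one in the nucleus, translated in the cytosol and imported, and factors such as NRF1, the GABP complex and YY1 are known to bind many of their promoters.

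The series removed distal regulatory elements, named E7, 18qNE and 18qE, with Cas9 in 2 human cell lines and sequenced RNA (26 of its 32 samples). HCT116 is a colorectal cancer line and HEK293 an embryonic kidney line. The tested groups were 1 HCT116 clone without E7, sampled on extraction days A, B and C (3 libraries), 3 HCT116 clones without 18qNE (1 library each, on days A, B and A), 2 HCT116 clones without 18qE (day D) and 2 HEK293 libraries without E7 (day E). They were set against 4 HCT116 control clones on days A, B and C (12 libraries), control clones 1 and 2 again on day D, and 2 HEK293 control clones on day E. All cells of all groups had received Cas9-GFP and had been sorted for it, and each clone grew from a single cell. Controls carried an empty guide vector. Titles number the HEK293 E7 libraries 1 and 2, but their clone label is the same, so they may be 1 clone. The deleted elements are not genes, so the deletions were taken from the labels and not checked in the counts.

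Depth differed by set: HEK293 libraries held 26491576 to 34790193 gene counts, HCT116 libraries of day D 22972412 to 24887785, and those of the earlier days 9871667 to 14862268. Levels below are CPM, counts scaled to the same total of gene counts in each library and not divided by gene length, so levels of different genes are not compared. Differences are log2 fold changes, deletion minus control unless stated, with their standard error (SE) from edgeR's quasi-likelihood test. "Rose" and "fell" are used where the Benjamini-Hochberg adjusted p, over all genes tested, was under 0.05. Where deletions or the lines are compared, HCT116 replicates are clones, so p-values measure the spread between clones. For E7 that spread comes from the control clones. Tests of days (deletion by day included) and of control clones took libraries as replicates, with the clone as a term. Their p-values measure the spread between libraries of the same clone. In HEK293 the 2 E7 libraries were fitted as 2 replicates although they may be 1 clone, so p-values there, the interaction's included, may measure in part the spread between libraries of 1 clone. In bulk RNA, fewer mitochondrial genomes or mitochondria per cell and less RNA from each cannot be told apart.

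The line labels were checked on marker genes. Summed over 10 colorectal epithelial markers, HCT116 libraries stood at 4246 to 5797 CPM in the E7 clone and 3827 to 6451 CPM in controls, carried by KRT8, KRT18 and KRT19, while CDX1, GPA33, LGALS4 and VIL1 stayed at or near 0. Summed over 5 listed HEK293 markers, HEK293 libraries stood at 1096 to 1137 CPM with E7 deleted and 1019 to 1054 CPM in controls, and over 5 listed colorectal markers at 1018 to 1163 CPM and 447 to 731 CPM. Leukocyte markers summed to 1.05 to 2.15 CPM in the E7 clone and 0.075 to 1.04 CPM in HCT116 controls, with PTPRC at or near 0 in both. A pair of libraries stood apart in protein synthesis genes, with ribosomal protein genes at 6.63% of gene counts in control clone 1 on day A and 8.79% in HEK293 control 2, against 4.81% in HEK293 control 1.

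The 13 mitochondrial mRNAs together made up less of the gene counts in the E7 clone of HCT116 than in any control library of the same line. Their share was 4.32% on day A, 4.08% on day B and 3.64% on day C in the E7 clone. In control clones 1 to 4 it was 5.86%, 6.46%, 6.60% and 5.24% on day A, 4.98%, 4.94%, 5.01% and 4.81% on day B, and 4.71%, 4.92%, 4.81% and 4.81% on day C. The E7 value lay below all 4 controls on each day, at 0.715 of the control mean on day A, 0.826 on day B and 0.756 on day C. The 41 nuclear genes together made up 0.451%, 0.465% and 0.444% in the E7 clone and 0.437% to 0.571% in controls. The ranges overlapped, although on day A the E7 value lay below all 4 controls (0.469% to 0.571%). Counting error is small beside these differences (for the E7 clone on day A, exact 95% binomial interval 4.31% to 4.33%), and the interval covers counting error only.

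**Figure D1:**
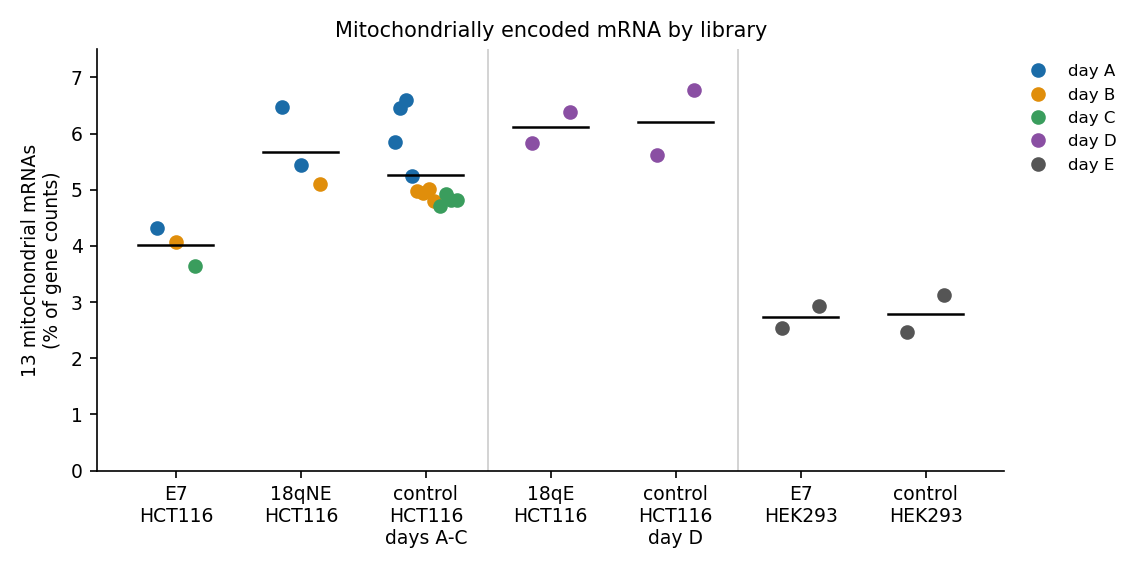
Share of gene counts taken by the 13 mitochondrial mRNAs, in percent, 1 point per library coloured by extraction day, with the group mean as a black line. The 3 E7 libraries of HCT116 sit between 3.64% and 4.32%, below all 12 control libraries of days A to C, while the 18qNE, 18qE and HEK293 E7 libraries overlap their controls.

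Gene by gene, 4 of the 13 mitochondrial mRNAs fell in the E7 clone and none rose, while of the 41 nuclear genes 1 rose and 2 fell. Of all 17664 genes tested, 13.9% passed, 7.58% higher and 6.32% lower. The median log2 difference was -0.43 over the mitochondrial mRNAs, -0.04 over the nuclear genes and -0.01 over all genes tested. At an unadjusted p under 0.05, edgeR gave 8 mitochondrial and 4 nuclear genes. When each library counted as a replicate and day was blocked, 8 mitochondrial mRNAs passed, all lower. That fit takes the 3 libraries of 1 E7 clone as replicates, so its count is no measure of spread between clones. The share of all genes is not given for that fit or at the unadjusted p.

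Complex IV is the oxidase that reduces oxygen to water, and 2 of its 3 mitochondrial subunits fell. MT-CO2, its copper-bearing subunit, stood at 4552, 3842 and 3449 CPM in the E7 clone on days A, B and C, and at 5277 to 8004 CPM in the 12 control libraries, with a median of 6098. Every E7 library lay below every control library, and its log2 level fell by 0.66 (SE 0.08; edgeR adjusted p = 0.00216). MT-CO3, a core subunit without metal centres, stood at 5858, 5366 and 4562 CPM in the E7 clone and at 6422 to 9456 CPM in controls, with a median of 7150.5. It fell by 0.51 (SE 0.09; edgeR adjusted p = 0.0104), again without overlap. MT-CO1, the catalytic subunit, stood at 6174, 5167 and 4749 CPM in the E7 clone and at 4608 to 8637 CPM in controls, with a median of 5590.1. Its groups overlapped, and its log2 difference of -0.15 (SE 0.12) did not pass (edgeR adjusted p = 0.48).

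The ATP synthase subunits moved like MT-CO3. MT-ATP6, part of the proton channel, stood at 3830.4, 3372 and 3013 CPM in the E7 clone and at 4299 to 6386 CPM in controls, with a median of 4602. It fell by 0.51 (SE 0.09; edgeR adjusted p = 0.00944) with no overlap. MT-ATP8, whose reading frame overlaps that of MT-ATP6, stood at 644, 594 and 516 CPM in the E7 clone and at 670.1 to 1088 CPM in controls, with a median of 752. Its libraries did not overlap either, but its difference of -0.43 (SE 0.14) did not pass (edgeR adjusted p = 0.0749).

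Among the complex I subunits, which pump protons in the membrane arm, MT-ND4 stood apart. It stood at 6902, 6319.6 and 5756 CPM in the E7 clone and at 8091 to 14656 CPM in controls, with a median of 8935. The groups did not overlap, and MT-ND4 fell by 0.63 (SE 0.14; edgeR adjusted p = 0.0234). The call was lost without control clone 1 (-0.65, adjusted p = 0.0513) and without control clone 2 (-0.62, adjusted p = 0.0646). MT-ND4L, which shares a transcript with MT-ND4, stood at 829, 722 and 694 CPM in the E7 clone and at 797 to 1432 CPM in controls, with a median of 973. Its difference of -0.43 (SE 0.13) did not pass (edgeR adjusted p = 0.0635), and MT-ND6, the only mRNA encoded on the other strand, had -0.44 (SE 0.19; edgeR adjusted p = 0.163) with 528, 572 and 485 CPM in the E7 clone and 535 to 1131 CPM in controls.

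The remaining complex I subunits of the mitochondrial genome lay at or close to control levels. MT-ND2 stood at 4345, 4671 and 4089.8 CPM in the E7 clone and at 3876 to 4971 CPM in controls, with a median of 4238 (log2 difference 0.05, SE 0.07, edgeR adjusted p = 0.679). MT-ND1 stood at 2223, 2503 and 2089 CPM in the E7 clone and at 1959 to 2862 CPM in controls (-0.09, SE 0.09). MT-ND3 stood at 1135, 1179 and 997 CPM in the E7 clone and at 966 to 1403 CPM in controls (-0.06, SE 0.08). For these genes the E7 libraries lay inside the control range. MT-ND5, the largest of these subunits, stood at 3184, 3638 and 3308 CPM in the E7 clone and at 3331 to 4989.6 CPM in controls (-0.17, SE 0.13), and MT-CYB, the cytochrome b of complex III, at 2961, 2821 and 2648 CPM in the E7 clone and 2941 to 5093 CPM in controls (-0.40, SE 0.13, edgeR adjusted p = 0.0762). By count, 5 of the 13 mitochondrial mRNAs (MT-ATP6, MT-ATP8, MT-CO2, MT-CO3 and MT-ND4) lay lower in every E7 library than in every control library, as did 7.3% of 15504 genes.

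**Figure D2:**
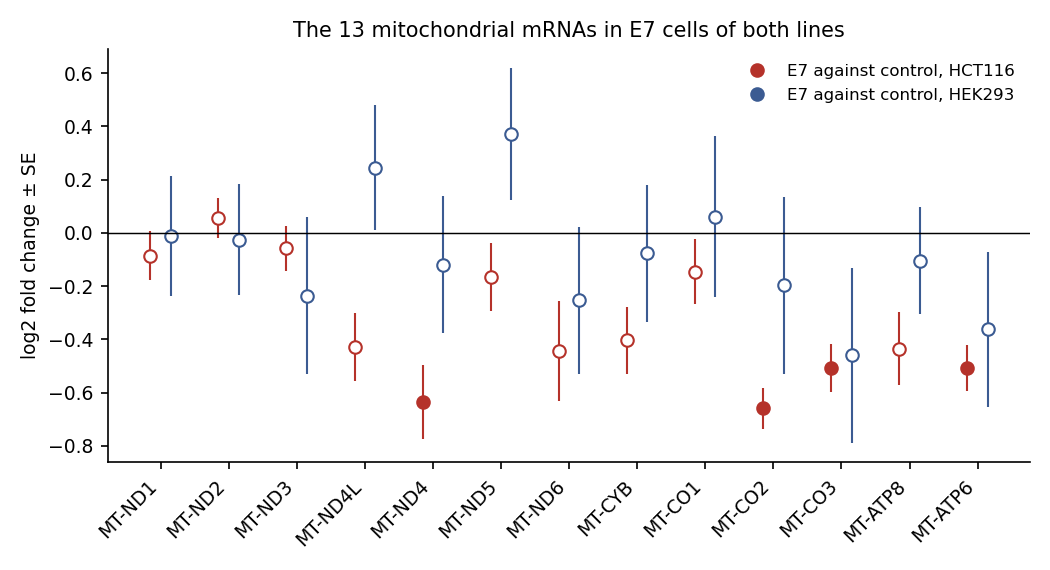
Log2 fold change of each of the 13 mitochondrial mRNAs, E7 deletion minus control, in HCT116 and HEK293, with the SE as bars (filled symbols, adjusted p under 0.05; open symbols, not). The HCT116 values run from -0.66 for MT-CO2 to 0.05 for MT-ND2, with 4 filled, and no HEK293 value is filled.

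The make-up of the mitochondrial mRNA pool was set out as each mRNA's part of the 13. MT-ND2 made up 10.9% ± 0.751 of the 13 mRNAs' counts in the E7 clone (SD, n = 3 libraries) and 8.25% ± 1.28 in controls (n = 12), and MT-ND3 2.75% ± 0.132 and 2.22% ± 0.201. MT-ND4 made up 15.8% ± 0.249 in the E7 clone and 18.6% ± 1.59 in controls, and MT-CO2 9.82% ± 0.63 and 11.9% ± 0.963. In each of these 4 the E7 libraries lay outside the control range, by a small margin for MT-ND2 (10.07% to 11.5% in the E7 clone, up to 10.06% in controls). These shares are parts of 1 sum, so a drop in some raises the others, and no test was made on them.

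The mitochondrial ribosomal RNAs are transcribed from the same strand as most of the mRNAs. MT-RNR1, the small subunit rRNA, stood at 1887 to 2842 CPM in the E7 clone and at 617 to 2202 CPM in controls (log2 difference 0.91, SE 0.26, edgeR adjusted p = 0.0551). MT-RNR2, the large subunit rRNA, stood at 6707 to 8285 CPM in the E7 clone and at 4512 to 8810 CPM in controls (0.13, SE 0.18). Neither passed. How RNA was selected for sequencing, which bears on rRNA counts, is not stated in the labels. Among nuclear copies of mitochondrial genes, whose reads can be shared with the mitochondrial originals, 2 of 12 tested fell, MTCO3P12 by 0.52 and MTND4P12 by 0.62, and their median log2 difference was -0.28.

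Markers of other cell types also differed in the E7 clone. Of 5 HEK293 markers tested, 1 rose and 2 fell, and the list summed to 31.3 to 46.0 CPM in the E7 clone and 79.9 to 109.8 CPM in controls, with NEFM at 0 in both. VIM, an intermediate filament of mesenchymal cells, stood at 18.1 to 26.0 CPM in the E7 clone and 0.155 to 1.61 CPM in controls, and DPYSL3 at 4.64 to 6.80 CPM in the E7 clone and 69.3 to 89.4 CPM in controls. Of the leukocyte list the 1 gene tested, LYZ, rose; of 2 fibroblast genes and 1 endothelial gene tested none passed, and of 7 colorectal genes 1 rose and 1 fell. Of 16 replication-dependent histone genes tested, whose RNAs lack a poly-A tail, none passed in edgeR (median -0.42). Of 3 nuclear-retained RNAs, MALAT1 fell by 0.39, a call lost without the E7 library of day A (-0.21, edgeR adjusted p = 0.118). The part of these in the mitochondrial values was not tested.

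Of the nuclear genes, the 3 that passed in the E7 clone lie on chromosomes 8 and 12. CYC1, the cytochrome c1 of complex III (chromosome 8), stood at 171, 199 and 189 CPM in the E7 clone and at 278 to 389.8 CPM in controls, with a median of 294. It fell by 0.72 (SE 0.10; edgeR adjusted p = 0.00346), and COX6C, a small subunit of complex IV (chromosome 8), fell by 0.64 (SE 0.09; edgeR adjusted p = 0.00379), with 85.1, 84.9 and 77.9 CPM in the E7 clone and 112 to 174 CPM in controls. NDUFA9, a complex I subunit that binds NADPH (chromosome 12), stood at 42.9, 47.3 and 45.2 CPM in the E7 clone and at 26.1 to 36.5 CPM in controls, with a median of 29.5. It rose by 0.60 (SE 0.08; edgeR adjusted p = 0.00397). None of the 3 overlapped with controls, against 7.3% of all genes lower and 8.15% higher in every library.

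Their chromosomal neighbours moved the same way. A stretch of chromosome 8 from CPNE3 to the end of the chromosome and a stretch of chromosome 12 from KDM5A to AMN1 had been noticed in earlier results of these data, so they are a description. Over 247 genes of the chromosome 8 stretch the median log2 difference was -0.58, with 3 higher and 125 lower. Over 213 genes of the chromosome 12 stretch it was 0.59, with 116 higher and 2 lower. The chromosome 8 stretch holds UQCRB as well as CYC1 and COX6C, and UQCRB, a ubiquinone-binding subunit of complex III, did not move with it. UQCRB stood at 256, 243 and 219 CPM in the E7 clone and at 182 to 268 CPM in controls (log2 difference 0.18), while the 10 tested genes before it had a median of -0.53 and the 10 after it -0.77. Of the 37 nuclear members outside both stretches none passed, and their median was -0.04.

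**Figure D3:**
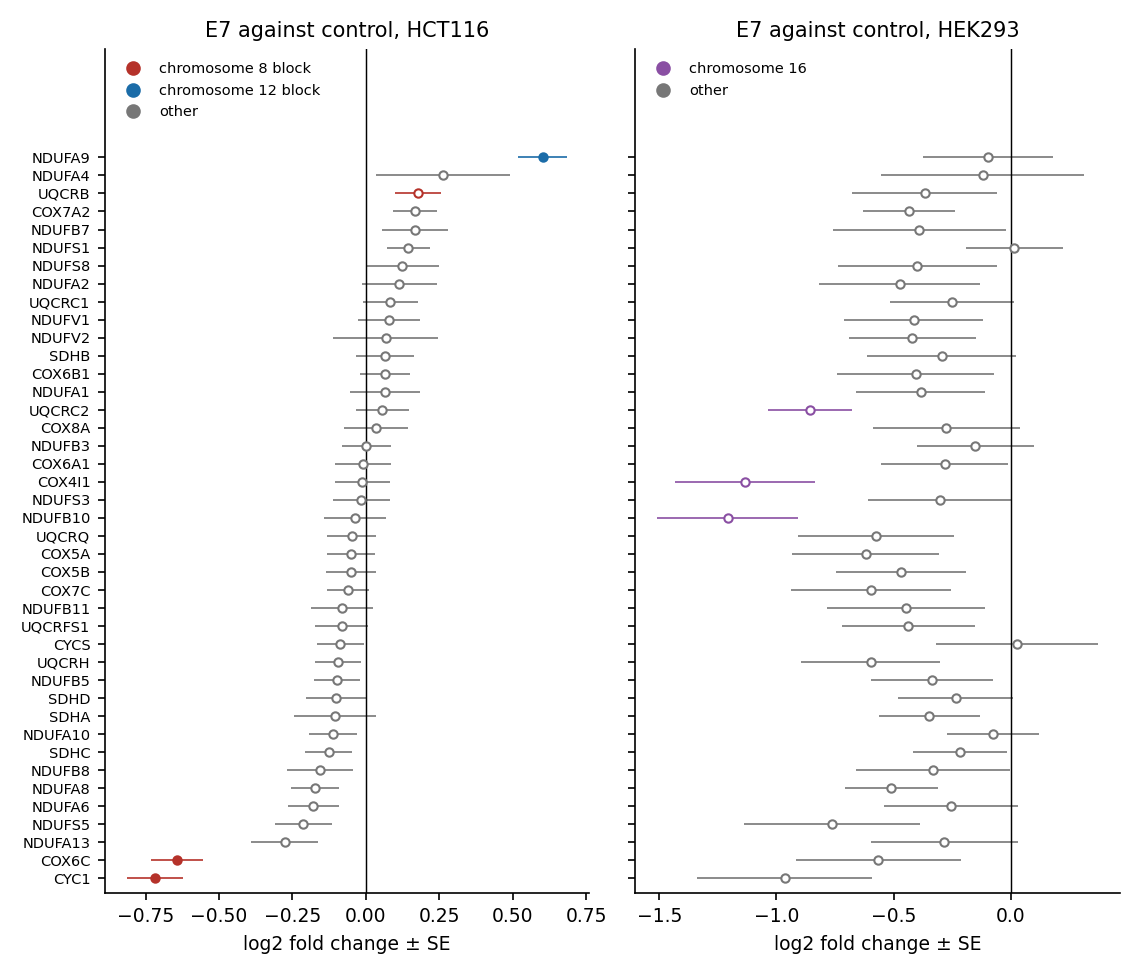
Log2 fold change with SE of each nuclear member, E7 deletion minus control, in HCT116 and in HEK293 (filled symbols, adjusted p under 0.05; open, not). Members of the chromosome 8 and 12 stretches are coloured in the HCT116 panel and those of chromosome 16 in the HEK293 panel. In HCT116 CYC1, COX6C and NDUFA9 stand apart from the rest, and in HEK293 most members lie below 0, lowest for NDUFB10 at -1.21.

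Beyond the members, lists of genes that make, assemble or regulate the chain were counted in the E7 clone, to be read against the 7.58% of all genes that rose and 6.32% that fell. Of 18 other complex I subunits, NDUFS4 rose by 0.46 and NDUFB9 (chromosome 8) fell by 0.69 (edgeR adjusted p = 0.014 and 0.00762). Of 19 nuclear ATP synthase subunits only ATP5MC2, a c-ring subunit, rose (0.44), a call lost without control clone 1, 2 or 4 (adjusted p = 0.0920, 0.0956 and 0.0519). Of 5 other complex III and IV subunits tested, COX6B2 fell by 1.54, a call lost without control clone 1 or 2 (adjusted p = 0.0946 and 0.0885) and without E7 day A or E7 day C (0.0712 and 0.0604). The list medians were 0.01 for both complex I and ATP synthase and -0.18 for complexes III and IV.

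Of 13 genes of mitochondrial DNA maintenance and transcription 3 fell and none rose (median -0.18). TOP1MT, the mitochondrial topoisomerase (chromosome 8), fell by 0.90 (edgeR adjusted p = 0.00418). POLG2, the accessory subunit of the mitochondrial DNA polymerase, and TWNK, the replicative helicase, fell by 0.43 and 0.33, and TOP1MT alone of the 3 passed without control clone 1 (adjusted p = 0.0642 for POLG2 and 0.102 for TWNK) or without control clone 2 (0.104 and 0.0830). Both were also lost without the E7 library of day A (0.124 and 0.155), and POLG2 without control clone 4 (0.0514). Of 18 genes of mitochondrial RNA processing none passed (median -0.06). Of 48 assembly factors 1 rose, TTC19 of complex III (0.71, edgeR adjusted p = 0.0012), and 8 fell (median -0.11), among them ECSIT of complex I (by 0.98, adjusted p = 0.00257) and SDHAF3 of complex II (by 0.75). The 8 became 4 without control clone 1 or without control clone 2.

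Of 75 mitochondrial ribosomal proteins 3 rose and 4 fell (median -0.07), among them MRPL51 (0.53, chromosome 12), MRPL40 (-0.72) and MRPL13 (-0.60, chromosome 8). Of 9 regulators of mitochondrial biogenesis tested, MYC, a transcription factor of growth genes that lies on chromosome 8, fell by 1.19 (edgeR adjusted p = 0.000733). CREB1 fell by 0.40, a call lost without control clone 2 (adjusted p = 0.0570). Of 15 citric acid cycle enzymes OGDH and SUCLG1 rose (0.59 and 0.32) and PDHB fell (by 0.45). OGDH was lost without control clone 2 (adjusted p = 0.0542), and SUCLG1 without control clone 1, 2 or 4 (0.0966, 0.106 and 0.0592) or the E7 library of day C (0.0693).

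Whether the E7 clone changed over the 3 days unlike the controls was tested as deletion by day. None of 15767 genes passed in edgeR (0.0%), 0 members had an unadjusted p under 0.05, and 0 passed with DESeq2. That test rests on 1 E7 library a day.

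When the 3 18qNE clones took the place of the controls, none of the 54 members passed for E7, and the medians were -0.45 for the mitochondrial mRNAs and 0.04 for the nuclear genes. MT-CO2 then had -0.70 (edgeR adjusted p = 0.536). That fit rests on 3 reference libraries, and the share of all genes that passed in it is not given. MYC, which fell by 1.19 against the control clones, did not pass there either (edgeR adjusted p = 0.0727).

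The promoter of NDUFA9 is shown because NDUFA9 was the nuclear member that rose in the E7 clone of HCT116, with the match to the YY1 motif AAGATGGCG in capitals (RefSeq, GRCh38.p14, plus strand, chr12:4648864-4649163, 300 bases around the gene's start).
NDUFA9: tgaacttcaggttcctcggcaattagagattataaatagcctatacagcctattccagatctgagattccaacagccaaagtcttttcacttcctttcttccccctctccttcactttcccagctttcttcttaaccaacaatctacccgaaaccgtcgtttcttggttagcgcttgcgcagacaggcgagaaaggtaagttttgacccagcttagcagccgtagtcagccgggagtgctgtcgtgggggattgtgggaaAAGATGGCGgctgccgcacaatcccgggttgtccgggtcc
Of the 41 nuclear members, 35 matched a RefSeq promoter, giving 38 promoters of 300 bases. AAGATGGCG was found on either strand in 5 of the 38 (13.2%; NDUFA6, NDUFA9, NDUFB8, SDHB and UQCRC1) and in 1.75% of all 35116 promoters. The ETS and GABP motif CCGGAAG was found in 14 (36.8%, against 10.3%), the palindromic NRF1 motif in 2 (5.26%, against 1.24%; NDUFA8 and SDHD) and the E-box CACGTG in none (0.0%, against 7.26%). NDUFB5, NDUFS5, SDHC, UQCRB, CYC1 and COX6C were not matched. A match describes the letters in these windows.

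In the 18qNE clones no member passed, nor did any of the 15524 genes tested (0.0%). At an unadjusted p under 0.05 edgeR gave none of the 54, and no member passed with DESeq2. The mitochondrial share was 6.47%, 5.11% and 5.45% in clones 1 to 3 (days A, B and A). The day A values lay inside the control range of that day, and the day B value lay just above that of day B (4.81% to 5.01%). MT-CO2 stood at 8293, 6397 and 5851 CPM in the 18qNE clones and, on days A and B, at 5277 to 8004 CPM in controls. Log2 differences of the mitochondrial mRNAs ran from -0.07 to 0.19 for MT-CO1 (median 0.01). Those of the nuclear genes ran from -0.29 for CYC1 to 0.16 for NDUFA4 (median -0.08). CYC1 stood at 280.1, 297 and 192 CPM, with clone 3 the low one. NDUFS1 stood at 120, 68.8 and 124 CPM, with clone 2 the low one. No member lay outside the controls in every 18qNE library, as 0.481% of genes did on the lower side and 0.276% on the higher.

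In the 18qE clones, sampled on day D, no member passed, nor did any of 15261 genes (0.0%). At an unadjusted p under 0.05 edgeR gave none of the 54, and DESeq2 called 0. The mitochondrial share was 5.84% and 6.39% in the 18qE clones and 5.62% and 6.78% in controls, which enclose them. Differences ran from -0.18 for MT-ND3 to 0.18 for MT-ND4L (median -0.02) and from -0.34 for NDUFS1 to 0.22 for NDUFV2 (median -0.03). With 2 libraries a side, 12 members lay lower in both 18qE libraries and 2 higher, against 16.6% and 11.0% of all genes. NDUFS1 stood at 62.1 and 129 CPM in 18qE clones 1 and 2 and at 127 and 119 CPM in controls, with 18qE clone 1 the low one.

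In HEK293 cells without E7 no mitochondrial mRNA passed (median -0.11). Their share was 2.53% and 2.94% with E7 deleted and 2.47% and 3.12% in controls, so the controls enclosed both. Of 11806 genes 3 passed (0.0254%; 0.00847% higher and 0.0169% lower), none of them a member. At an unadjusted p under 0.05 edgeR gave 0 mitochondrial and 5 nuclear members, and DESeq2 called 3 nuclear ones. The share of all genes is not given for either. MT-CO2 was at 3476 and 4108 CPM with E7 deleted and 3178 and 5063 CPM in controls (log2 difference -0.20, SE 0.33). MT-CO3 was at 2278 and 2871 CPM with E7 deleted and 2635 and 4082 CPM in controls (-0.46, SE 0.33). MT-ATP6 was at 2025 and 2407 CPM with E7 deleted and 2255 and 3154 CPM in controls (-0.36, SE 0.29), and MT-ND4 at 3754 and 3959 against 3565 and 4404 CPM (-0.12, SE 0.26). In all 4 the groups overlapped. Both MT-ND4L (700.1 and 677 against 661 and 455 CPM) and MT-ND5 (2201 and 2415 against 1999.9 and 1425 CPM) lay higher in both E7 libraries, as did 28.6% of all genes.

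The nuclear members lay mostly below 0 in HEK293 (median -0.39, against -0.01 over all genes tested), with 39 of 41 negative. They moved with 1 control library. HEK293 control 2 stood above control 1 in 39 of the 41, with a median ratio of 1.60 (0.729 to 2.31), while over all genes the median ratio was 0.942. Without control 1 the nuclear median was -0.69, and without control 2 it was 0.02. Without control 1 the mitochondrial differences ran from -0.78 for MT-CO3 to 0.58 for MT-ND5. Without control 2 they ran from -0.10 for MT-ATP8 to 0.32 for MT-CO1. Each of these fits holds 1 control library, so no calls are given.

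Members on chromosome 16 were low in HEK293 E7 cells whichever control was used. UQCRC2, a core subunit of complex III, stood at 165 and 154 CPM with E7 deleted and at 284 and 267 CPM in controls. COX4I1, the regulatory subunit IV of complex IV, stood at 149 and 172 CPM with E7 deleted and at 261 and 409 CPM in controls. NDUFB10, of complex I, stood at 82.2 and 95.3 CPM with E7 deleted and at 150.3 and 238 CPM in controls. None of the 3 overlapped, and 13 nuclear members in all lay lower in both E7 libraries, as did 20.8% of genes. Their differences were -0.86 (SE 0.18), -1.14 (SE 0.30) and -1.21 (SE 0.30), and none passed (edgeR adjusted p = 0.224, 0.261 and 0.247). Without control 1 the differences were -0.86, -1.46 and -1.54, and without control 2 they were -0.86, -0.73 and -0.79. Over 530 genes of chromosome 16 the median was -0.62 and 511 were negative (-0.62 without control 1, -0.66 without control 2), and in the HCT116 E7 clone the median over 732 genes was -0.02. The choice of chromosome 16 was made with earlier results known. CYC1 had -0.97 (114 and 115 CPM with E7 deleted, 142 and 281 CPM in controls), but -0.34 without control 2.

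The promoters of these 3 chromosome 16 members follow, since they were low together (RefSeq, GRCh38.p14, plus strand; COX4I1 at chr16:85799445-85799744, NDUFB10 at chr16:1959288-1959587, UQCRC2 at chr16:21953111-21953410). Capitals mark the ETS and GABP motif, here as its reverse complement CTTCCGG, and neither NDUFB10 nor UQCRC2 holds any of the 4 motifs searched.
COX4I1: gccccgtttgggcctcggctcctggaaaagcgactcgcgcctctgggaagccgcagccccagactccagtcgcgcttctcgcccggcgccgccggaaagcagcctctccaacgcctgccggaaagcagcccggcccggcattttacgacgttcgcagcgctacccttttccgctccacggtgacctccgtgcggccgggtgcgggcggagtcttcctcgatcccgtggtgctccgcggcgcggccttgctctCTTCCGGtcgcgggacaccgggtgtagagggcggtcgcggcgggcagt
NDUFB10: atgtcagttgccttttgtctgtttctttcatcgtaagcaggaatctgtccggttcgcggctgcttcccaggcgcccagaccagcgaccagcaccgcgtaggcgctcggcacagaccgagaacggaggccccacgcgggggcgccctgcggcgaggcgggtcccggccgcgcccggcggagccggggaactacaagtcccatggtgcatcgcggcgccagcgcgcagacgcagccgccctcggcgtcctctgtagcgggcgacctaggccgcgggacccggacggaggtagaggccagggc
UQCRC2: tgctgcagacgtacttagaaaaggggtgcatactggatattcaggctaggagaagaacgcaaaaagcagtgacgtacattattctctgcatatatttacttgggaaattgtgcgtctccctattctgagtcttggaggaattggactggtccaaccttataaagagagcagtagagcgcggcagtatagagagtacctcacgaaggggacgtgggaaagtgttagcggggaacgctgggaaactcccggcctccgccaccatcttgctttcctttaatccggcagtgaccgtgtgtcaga

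Set against each other in 1 fit, the E7 differences of the 2 lines differed for UQCRC2 alone among the members. It was lower by a further 0.90 in HEK293 (interaction -0.90, SE 0.15, edgeR adjusted p = 0.0231), and of all 11849 genes tested 3.38% passed (1.45% higher and 1.93% lower). UQCRC2 lies on chromosome 16, and over 534 genes of that chromosome the median interaction was -0.62. Of these 495 were negative, with 1 higher and 81 lower at the threshold. Of 13 mitochondrial mRNAs none passed the interaction test, with 1 at an unadjusted p under 0.05, and among nuclear genes 5 reached that level. The mitochondrial differences were not shown to differ between the lines, although 4 passed in HCT116 and 0 in HEK293. UQCRC2 did not pass without HEK293 E7 library 1 or library 2, nor without HCT116 control clone 1, 2 or 4, where its interaction stayed between -0.94 and -0.85 (adjusted p up to 0.109). Leaving out a HEK293 control leaves 1 HEK293 control library, so calls from those fits are not given.

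Between the lines, HEK293 controls had less of every mitochondrial mRNA than HCT116 controls. All 13 fell in HEK293 relative to HCT116 (median -1.12, against 0.05 over all genes), while 57.0% of 11805 genes passed, 31.1% higher and 26.0% lower. Over the genes listed in both kinds of file, the mitochondrial share in HEK293 controls was 0.513 of that in HCT116 controls. Cell line, extraction day and the gene list of the files go together, so their parts cannot be told apart. RNAs read as signs of RNA quality or selection differed too. The nuclear-retained MALAT1 fell by 1.69 and NEAT1 fell by 1.21 in HEK293, and of 13 replication-dependent histone genes tested 10 rose and none fell (median 1.66), H4C8 by 4.92 and H2BC11 by 3.12 among them. The part of these in the mitochondrial values was not tested.

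The 2 largest differences were in MT-ND2 and MT-ND4 of complex I. MT-ND2 stood at 1709.7 and 1563 CPM in HEK293 controls and at 3876 to 4971 CPM in HCT116 controls (log2 difference -1.62, SE 0.12, edgeR adjusted p = 4.79e-05). MT-ND4 stood at 3565 and 4404 CPM in HEK293 and at 8091 to 14656 CPM in HCT116 (-1.55, SE 0.19). MT-CO3 of complex IV came next (-1.41), then MT-ND5 (-1.40), MT-ND3 (-1.32), MT-ND1 (-1.16), MT-ND4L (-1.12), MT-ATP6 (-1.09), MT-CYB (-0.99) and MT-CO2 (-0.85), all without overlap, while MT-CO1 (-0.63), MT-ND6 (-0.63) and MT-ATP8 (-0.40) differed least and overlapped. In all, 10 of the 13 lay lower in both HEK293 libraries than in every HCT116 library, as did 15.3% of genes. MT-ATP8 lost its call without HCT116 clone 2, 3 or 4 (adjusted p up to 0.115), MT-CO1 without clone 1 or 2 (up to 0.0653) and MT-ND6 without HEK293 control 1 or any HCT116 clone (up to 0.136) and with DESeq2's size factors (0.0503). The rRNAs fell too, MT-RNR1 by 1.04 and MT-RNR2 by 0.92, and MT-RNR1 did not pass without HEK293 control 1 (adjusted p = 0.0752).

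**Figure D4:**
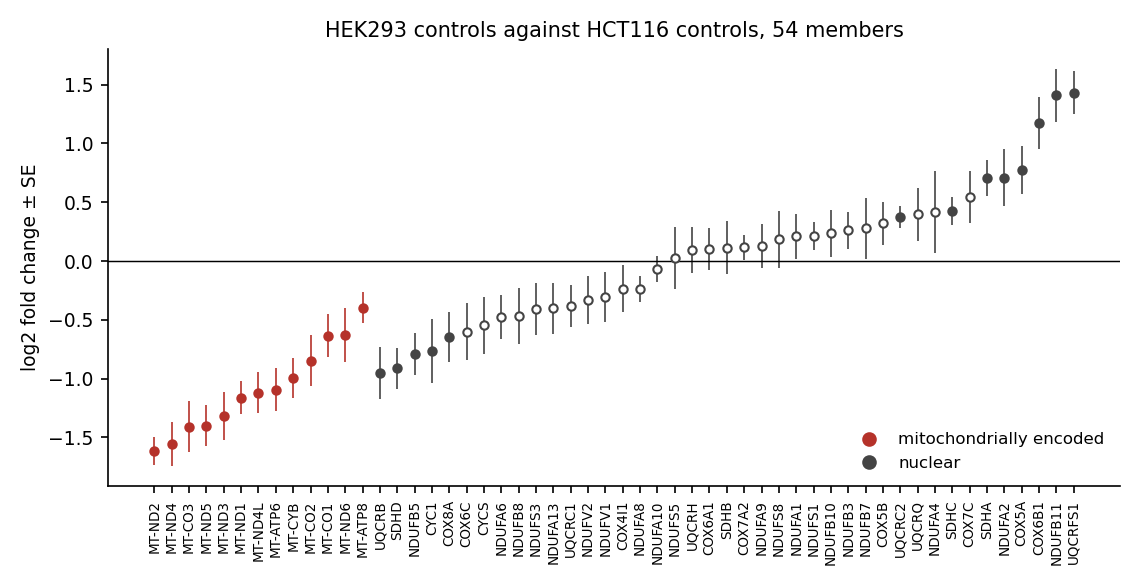
Log2 fold change with SE of the 54 members, HEK293 controls minus HCT116 controls, ordered by size within each kind (filled symbols, adjusted p under 0.05; open, not; mitochondrial and nuclear genes in separate colours). The 13 mitochondrial mRNAs, on the left, run from -1.62 for MT-ND2 to -0.40 for MT-ATP8, and the nuclear genes run from -0.95 for UQCRB to 1.43 for UQCRFS1.

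The nuclear genes split, with 8 higher and 5 lower in HEK293 (median 0.11). In both HEK293 libraries 10 lay above every HCT116 library, as did 36.4% of genes. CPM and overlap between the lines, here and above, rest on all genes in each line's own files. Over the genes listed in both, HCT116 values are a little higher. The mean nuclear share of the HCT116 controls was 0.4909% that way and 0.4745% over all genes. Overlap was not recounted over the shared genes. UQCRFS1, the Rieske iron-sulfur protein of complex III, stood at 257 and 395 CPM in HEK293 controls and at 93.1 to 126 CPM in HCT116 controls. It rose by 1.43 (SE 0.18; edgeR adjusted p = 0.000527) with no overlap. NDUFB11 of complex I rose by 1.41 (113 and 200.4 CPM in HEK293, 44.7 to 69.2 CPM in HCT116). COX6B1 of complex IV rose by 1.18 (184 and 327 CPM in HEK293, 84.2 to 122 CPM in HCT116). Smaller rises were seen for COX5A (0.77), SDHA and NDUFA2 (0.71 each), SDHC (0.43) and UQCRC2 (0.38), and SDHA, the flavoprotein of complex II, stood at 252 and 311 CPM in HEK293 and at 129 to 178 CPM in HCT116.

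Lower in HEK293 were UQCRB by 0.95, SDHD by 0.91, NDUFB5 by 0.79, CYC1 by 0.76 and COX8A by 0.65. UQCRB stood at 96.8 and 162 CPM in HEK293 controls and at 182 to 268 CPM in HCT116 controls. SDHD, a membrane anchor of complex II, stood at 49.8 and 69.9 CPM in HEK293 controls and at 87.5 to 120.2 CPM in HCT116 controls, and so did not overlap, nor did NDUFB5 (39.3 and 57.3 against 60.8 to 86.1 CPM). The balance hung on the HEK293 library. Without HEK293 control 1 the nuclear median was 0.39, and without control 2 it was -0.34. UQCRFS1, NDUFB11, COX6B1, COX5A, SDHA, UQCRC2, UQCRB, SDHD and NDUFB5 passed in every setting tried, whereas COX8A, CYC1 and NDUFA2 lost their calls without any 1 HCT116 clone (edgeR adjusted p up to 0.0859 for COX8A and 0.0998 for CYC1). NDUFA2 also did without HEK293 control 2 (0.279), and SDHC without HCT116 clone 1 or 2 (up to 0.0542).

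The promoter of SDHD is printed as the called member with the NRF1 motif, which stands in capitals together with an ETS and GABP match, CTTCCGG (RefSeq, GRCh38.p14, plus strand, chr11:112086623-112086922).
SDHD: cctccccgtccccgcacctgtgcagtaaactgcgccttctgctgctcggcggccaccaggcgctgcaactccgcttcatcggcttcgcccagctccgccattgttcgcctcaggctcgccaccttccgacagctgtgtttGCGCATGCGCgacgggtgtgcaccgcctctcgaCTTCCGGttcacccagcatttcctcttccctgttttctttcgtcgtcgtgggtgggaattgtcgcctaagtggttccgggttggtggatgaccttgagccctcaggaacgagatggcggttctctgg

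Genes that act on mitochondrial DNA and RNA passed between the lines about as often as all genes did (57.0%), in both directions. Of 13 genes of mitochondrial DNA maintenance and transcription 3 rose and 4 fell in HEK293 (median -0.34). TFAM, which packages the mitochondrial genome and starts its transcription, rose by 0.90, while TFB2M, the initiation factor of POLRMT, fell by 1.59, POLG2 by 1.34, MTERF3 by 1.28 and TWNK by 0.81. All 5 kept their direction and passed without either HEK293 control. Of 18 RNA processing genes 4 rose and 6 fell, among the lower LRPPRC, which stabilises mitochondrial mRNAs (by 0.73), and GRSF1 (by 0.80). Of 9 regulators 1 rose, GABPA by 0.94, and 5 fell, MYC by 2.13, PPRC1 by 1.25, ESRRA by 1.06, PPARGC1B by 0.56 and NRF1 by 0.47.

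Within the HCT116 controls, the mitochondrial mRNAs changed with the extraction day. From day A to day B 9 of the 13 fell and 1 rose, and 38.5% of 14988 genes passed (19.1% higher and 19.4% lower). On day C, against day A, 7 fell and none rose, with 32.2% of genes passing (15.6% higher and 16.6% lower). These tests kept the clone as a block, since the same 4 clones were sampled on each day. Day C did not differ from day B in any member (5 of 14988 genes, 0.0334%; 0.00667% higher and 0.0267% lower). DESeq2 also called 0 members, with 1 mitochondrial and 1 nuclear gene at an unadjusted p under 0.05 in edgeR.

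MT-ND4 stood at 11068, 13517, 14656 and 9751 CPM in control clones 1 to 4 on day A, at 8967, 8551, 8775 and 8091 CPM on day B, and at 8512, 8903, 9409.7 and 8330.2 CPM on day C. All 4 clones were highest on day A, and MT-ND4 fell by 0.44 on day B (SE 0.08; edgeR adjusted p = 0.00105) and by 0.42 on day C (adjusted p = 0.00185). MT-CYB fell by 0.37 on day B (adjusted p = 0.00135) and by 0.26 on day C. MT-CO1, MT-CO2, MT-CO3, MT-ATP6 and MT-ND6 fell on both days too, by 0.25 to 0.33 on day B and by 0.27 to 0.46 on day C. MT-ND4L and MT-ATP8 fell on day B, by 0.39 and 0.27, and did not pass on day C (-0.24 and -0.19). MT-ND1 went the other way. It stood at 2369, 1959, 2036 and 2499 CPM on day A and at 2696, 2684, 2509 and 2862 CPM on day B, higher in all 4 clones, and it rose by 0.34 (edgeR adjusted p = 0.00295). On day C its difference was 0.19 and did not pass, and without clone 2 the day B rise did not pass either (adjusted p = 0.0669). Without control clone 2, 2 of the 13 passed on day B and 3 on day C, and without clone 3, 5 and 4. MT-ND4 and MT-CYB on day B, and MT-CO1, MT-ND4 and MT-ND6 on day C, passed whichever clone was left out.

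Of the 37 nuclear members outside the chromosome 8 and 12 stretches, 2 rose and 3 fell on day B, and 1 rose and 4 fell on day C. Of all genes, 38.5% passed on day B and 32.2% on day C. Among nuclear genes, CYCS rose on both days. It stood at 358, 305, 299 and 298 CPM in clones 1 to 4 on day A, at 396, 417, 427 and 374 CPM on day B, and at 358, 368, 399.6 and 363 CPM on day C. It rose by 0.41 on day B (edgeR adjusted p = 0.00109) and by 0.28 on day C (adjusted p = 0.0132). NDUFS3, a core subunit of complex I, rose by 0.34 and CYC1 by 0.23 on day B. UQCRC2 and UQCRC1, the core proteins of complex III, fell on both days, by 0.24 and 0.23 on day B and by 0.32 and 0.33 on day C, as did NDUFA1 (by 0.30 and 0.29). UQCRC2 stood at 216, 204, 214 and 196 CPM on day A, 166, 154, 177 and 179.7 CPM on day B and 159, 157, 175 and 156 CPM on day C. NDUFA2, COX6C and UQCRB fell on day C (by 0.35, 0.32 and 0.28). Control clone 1 on day A held the highest value of 28 of the 41 nuclear genes over the 12 libraries, and without that clone 11 nuclear genes rose and 1 fell on day B (median 0.09), against 1 and 5 without clone 3 (median -0.14). Without clone 2, CYCS alone passed on day B and UQCRC2 alone on day C, with adjusted p up to 0.292 for the others over the clones left out. CYCS on day C was also lost without clone 3 or 4 (up to 0.115).

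**Figure D5:**
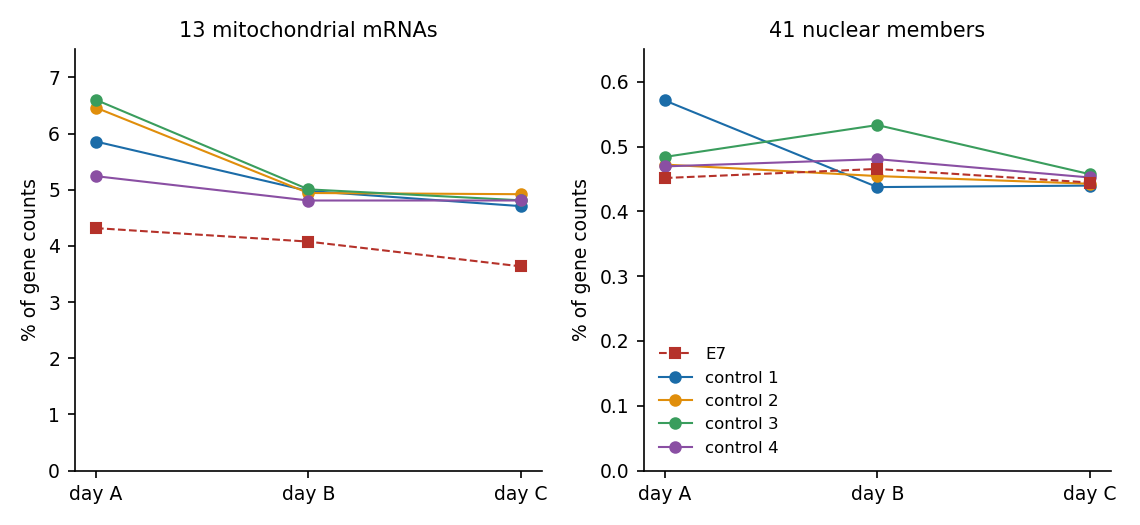
Share of gene counts taken by the 13 mitochondrial mRNAs (left) and by the 41 nuclear members (right), in percent, on extraction days A, B and C, 1 line per clone with the E7 clone dashed. The mitochondrial share of the 4 control clones is 5.24% to 6.60% on day A and 4.71% to 5.01% on days B and C, with the E7 clone below them on each day, while its nuclear share is below the controls on day A (0.451%) and among them on days B and C.

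Many genes that serve the mitochondrial genome rose on days B and C, the days on which most of its mRNAs were lower. The counts are to be read against the 19.1% of all genes that rose on day B and 15.6% on day C. Of 13 genes of mitochondrial DNA maintenance and transcription 11 rose and none fell on day B (median 0.33), and 9 rose on day C (median 0.24). SSBP1, the mitochondrial single-strand binding protein, rose by 0.56 and 0.43, and TFB2M by 0.40 and 0.39. Of 17 RNA processing genes tested 13 rose on day B (median 0.32) and 9 on day C (median 0.25), among them FASTKD2 (0.70 and 0.73) and PNPT1 (0.61 and 0.55), a mitochondrial exonuclease. Of 75 mitochondrial ribosomal proteins 48 rose and none fell on day B (median 0.30), and 29 rose and 1 fell on day C (median 0.20).

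Of 9 regulators, PPRC1, a coactivator of NRF1, rose by 0.64 and 0.53 and NRF1 by 0.50 and 0.38. BCS1L, which inserts the Rieske protein into complex III, rose by 0.88 and 0.80, 1 of 16 assembly factors that rose on day B and 7 that rose on day C. SURF1 (by 0.36 and 0.38) and SDHAF4 (by 0.74 and 0.66), also assembly factors, fell on both days, though without clone 2 neither passed on day B (adjusted p = 0.0748 and 0.104), nor SDHAF4 on day C without clone 1, 2 or 4 (0.0602, 0.318 and 0.0502). The mitochondrial rRNAs rose as well, MT-RNR1 by 0.83 and 0.68 and MT-RNR2 by 0.44 and 0.43. Of 18 complex I and 19 ATP synthase subunits outside the members none rose on either day. ATP5MC2 (by 0.29 and 0.30) and NDUFB1 (by 0.28 and 0.42) fell on both, and NDUFB4 and NDUFA5 on day C (by 0.26 and 0.25). Each of these calls was lost without clone 2 (adjusted p of at least 0.0845), and all but that of NDUFA5 without at least 1 other clone too. That none rose rests on control clone 1: without it, 6 of the 18 and 5 of the 19 rose on day B and none fell (medians 0.14 and 0.15). Without control clone 2 the counts that rose were lower, 6 of 13 and 2 of 13 for mitochondrial DNA genes on days B and C, 6 and 4 of 17 for RNA processing, and 15 and 2 of 75 for ribosomal proteins, and none fell in these lists. SSBP1, TFB2M, NRF1 and both rRNAs did not pass on day C without that clone (SSBP1 adjusted p = 0.0587, TFB2M 0.0584, NRF1 0.0628, MT-RNR1 0.0710 and MT-RNR2 0.101), nor did MT-RNR2 on day B (0.126). The nuclear-retained RNA MALAT1 rose by 0.60 and 0.75 on the same days, while NEAT1 fell by 0.24 on day C, a call lost without clone 1, 2 or 3 (adjusted p = 0.0880, 0.225 and 0.187). Of 10 replication-dependent histone genes tested 4 fell on both days, H2AC6 by 1.23 and 1.32, H2BC5 by 1.02 and 0.90, H2AC11 by 0.76 and 1.25 and H2BC12 by 0.63 and 0.48, and H1-4 rose on day C by 1.05. The call of H1-4 was lost without clone 2, 3 or 4 (adjusted p = 0.275, 0.0893 and 0.0543) and that of H2AC11 on day B without clone 3 (0.0517). The part of these in the day values was not tested.

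Between the 4 control clones, 3 members differed with the day as a term (7.8% of 14988 genes passed). NDUFA4 (edgeR adjusted p = 0.0012) stood at 68.6, 55.0, 88.5 and 84.8 CPM in clones 1 to 4, days summed. It was lower in clone 2 than in the other 3 (-0.56, adjusted p = 0.00308; 1.23% of genes passed for that clone) and higher in clone 3 (0.41, adjusted p = 0.00706; 7.52%). SDHA (adjusted p = 0.0275) stood at 144, 138, 171 and 137 CPM and was higher in clone 3 (0.33). MT-ND6 (adjusted p = 0.0403) stood at 665, 771, 872 and 608 CPM and was higher in clone 3 (0.34, edgeR adjusted p = 0.0258). Without day B, 0 mitochondrial and 1 nuclear gene passed between clones, without day C 0 and 0, and without day A 1 and 5. MT-CYB was lower in clone 4 (3275 against 3765, 3936 and 4108 CPM; -0.26, edgeR adjusted p = 0.0451; 5.22%).

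On day D control clones 1 and 2 were sampled again, in other and deeper libraries. No member passed against days A to C of the same clones (67 of 14782 genes, 0.453%), with 4 mitochondrial and 8 nuclear genes at an unadjusted p under 0.05 in edgeR and 1 nuclear gene by DESeq2. All 13 mitochondrial mRNAs were above 0 (median 0.30, from 0.19 for MT-ND3 to 0.41 for MT-CO2), and the nuclear median was 0.13, from -0.45 for CYCS to 0.59 for NDUFA4. Without day A 10 mitochondrial and 19 nuclear genes passed. The share of all genes that passed in that fit is not given, so this count cannot be read as particular to the members.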

How the data were processed

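RNA of 22 HCT116 and 4 HEK293 libraries was analysed. The other 6 samples of the series (ChIP) are not analysed here. The deposited files hold raw counts of reads per gene. Per the labels' protocols, libraries were made with TruSeq v2 from total RNA and sequenced single-end on a NextSeq500. The submitters' processing notes name TopHat2, Partek 3, HTSeq 0.6.1 and hg19, with no role for each. The sources used here do not say whether counting used strand or how RNA was selected. Without strand, reads of overlapping genes (MT-ND6 and its neighbours, for example) cannot be told apart, and nuclear copies of mitochondrial genes may share reads. HTSeq's summary lines were kept out of all totals.

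Counts were tested with edgeR 4.0.16 (R 4.3.3; TMM scaling, filterByExpr with a minimum count of 10, quasi-likelihood F test, two-sided), and p was adjusted by Benjamini-Hochberg across the whole table, at a threshold of 0.05. SE is the log2 fold change over the square root of F. For E7 in HCT116 the days were summed per clone, so 1 clone was set against 4 and was assumed to vary like the controls. The 18qNE clones (1 library each, day A or B) were set against the controls' days A and B, summed per clone, with no day term. Day comparisons kept the clone as a block, since the labels give the same clones on each day. The correlations of same-clone deviations between days ran from -0.205 to 0.677. DESeq2 1.42.0 was an alternative, as were other scalings, no filter, other designs and leaving out clones. Shares of all genes that passed belong to the main edgeR fits at the adjusted threshold. None is given for unadjusted p or for the alternatives. Scripts were tested on simulated counts. Replicate libraries differed by more than sampling noise (chi-square per degree of freedom 6.27 to 210), so each was kept.

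The members and the lists of other genes were chosen with earlier results of these data known. All 13 mitochondrial genes were named, up to 8 called nuclear members a direction, and up to 4 called genes a direction from each other list, by size of change. Intervals cover counting error only.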

Additional observations from a re-analysis of the deposited data

Results flagged for a closer look

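The 4 control clones of HCT116, days A to C summed, were searched for a clone far from the rest over 56 values (each member and the summed shares) with Dixon's test, which chance passes in about 1 in 20 cases. Control clone 2 stood apart for 2 of the 56, no more than that rate gives. NDUFB7, a complex I subunit, stood at 46.1 CPM in clone 2 and at 53.3, 54.2 and 53.8 CPM in clones 1, 3 and 4. COX6B1, of complex IV, stood at 92.1 CPM in clone 2 and at 99.1, 98.8 and 98.5 CPM in the others. In edgeR's test of clone 2 against clones 1, 3 and 4, with the day as a term, neither passed. NDUFB7 had -0.24 (edgeR adjusted p = 0.542) and COX6B1 -0.11 (adjusted p = 0.749). The E7 difference of UQCRC2 was unlike in the lines, by -0.90 (HEK293 minus HCT116, log2, edgeR adjusted p = 0.0231). That call was lost without either HEK293 E7 library or HCT116 control clone 1, 2 or 4. UQCRC2 lies on chromosome 16, where the median of the same value over 534 genes was -0.62, with 495 negative.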

How the results depend on the processing

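No single gene's called value changed sign. Nuclear medians did: between lines -0.34 without HEK293 control 2, against 0.11, for E7 in HEK293 0.02 without control 2, against -0.39, and on day B 0.09 without clone 1, against -0.06. Of the counts of called members under an alternative, 191 stayed within 1.5 times the reported count and 45 did not. Among single genes, 871 values kept their call and 179 lost it. For E7 in HCT116, 7 mitochondrial mRNAs passed without the low-count filter and 7 with DESeq2. With libraries as replicates and a replicate block on day 8 did, a fit that counts the libraries of 1 clone as replicates. With 18qNE clones as reference 0 mitochondrial and 0 nuclear genes did, a fit with fewer samples. For E7 in HEK293, 3 nuclear genes passed with DESeq2 and 2 with library number as replicate block. Leaving out single libraries there gave 0 to 8 mitochondrial and 0 to 39 nuclear calls. In the deletion groups the labels give same-numbered samples nothing in common but the number. Their correlations of deviations were 0.356 in HEK293, 0.0937 for 18qE and -0.258 to 0.117 for 18qNE. Control clone 3 had 0.357 between days A and B, so such a value cannot settle whether samples were paired. The block changed no other count in these groups. For 18qE too, leaving out a library leaves 1 in its group, and no calls are given. In the interaction, DESeq2 called 4 nuclear genes, and leave-outs gave 0 to 3 mitochondrial and 0 to 30 nuclear. Between lines, leave-outs gave 9 to 32 nuclear calls. On day B against A, leave-outs gave 2 to 10 mitochondrial and 1 to 12 nuclear calls, and 3 nuclear genes passed without the clone block. On day C, leave-outs gave 3 to 10 and 1 to 6, and 11 nuclear genes passed without the filter. Between clones, 6 mitochondrial mRNAs passed without the filter, 4 with DESeq2 and 0 to 1 with a day left out, and 0 to 5 nuclear genes did. On day D against A to C, 1 nuclear gene passed without the filter and 1 with DESeq2, and without day A 10 mitochondrial and 19 nuclear. The cause of these changes was not tested. The share of all genes that passed is not given for these alternative fits, so their counts cannot be read as particular to the members. The E7 over control ratio of the mitochondrial share in HCT116 was 0.762, and 0.753 against nuclear counts and 0.821 with rRNA included.

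Each deletion group holds 1 to 3 clones, and 1 clone stands for E7 in HCT116, so clone and deletion cannot be told apart. The nuclear values of HEK293 move with which control is used. Day, line and file set go together between the lines.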
